A study of Mus musculus with 6 samples.

Results

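Intergenic regions bound by CHD7 and lacking H3K27ac were described in cardiac neural crest cells of the mouse. Overlapping peaks of the CHD7 libraries were merged, and a merged stretch was kept as a CHD7 region where both libraries had a peak. Members were the CHD7 regions that lay between 1 and 100 kb from the nearest end of a protein-coding gene, outside all protein-coding gene bodies, and overlapped no peak of either H3K27ac library and no input peak. There were 1585 such regions among 19947 CHD7 regions (7.95%). The members were chosen by the CHD7, H3K27ac and input peak calls and by the distance from genes, so those values are given as a description, with no test. The absence of H3K27ac means that no peak was called, and acetylation below the calling threshold cannot be seen in peak lists.

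The cells came from pharyngeal arches 3 to 6 of embryos at stage E10.5, bred from Wnt1-Cre2 males and mTmG females, and were sorted for green fluorescent protein. Wnt1-Cre2 is a recombinase driver of the neural crest lineage and mTmG is a membrane reporter that turns green after recombination. All groups share these alleles. The 3 groups were chromatin precipitated with an antibody to CHD7, chromatin precipitated with an antibody to H3K27ac, and input chromatin, with 2 libraries each. The labels do not say whether libraries came from separate embryos or sorts, so the spread between libraries may be technical. The depth of the libraries is unknown, because the lists hold no read counts. They hold 31873 and 26927 placed peaks for CHD7, 24283 and 22686 for H3K27ac, and 451 and 512 for input. As a check of the label, H3K27ac lay at an end of 11 of 24 neural crest marker genes (45.8%), close to the 47.6% of all protein-coding genes. It lay at an end of 0 of 14 cardiomyocyte, 0 of 14 endothelium, 3 of 14 blood, 2 of 16 epithelium, 2 of 12 skeletal muscle and 6 of 22 neuron marker genes. For glia and melanocyte markers, many of which neural crest derivatives express, it was 7 of 12 (58.3%), and for housekeeping genes 25 of 27 (92.6%).

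CHD7 is an ATP-dependent chromatin remodeller whose chromodomains bind methylated lysine 4 of histone H3, a mark of enhancers and promoters. Loss of its function in humans causes CHARGE syndrome, in which structures with a neural crest contribution, such as the outflow tract of the heart, are often malformed. H3K27ac is laid down by the acetyltransferases p300 and CBP and marks active enhancers and promoters. Sites away from genes without it can be inactive or primed enhancers, insulators or other elements, and peak lists do not tell these apart.

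Genomic sequence of the regions was not used here, but 50 members overlapped the promoter of a long non-coding RNA (lncRNA) gene in RefSeq's promoter table (GRCm38.p6, the same assembly as mm10), which spans 250 bases before to 50 bases after the transcription start. In 12 of these both CHD7 summits, the positions of highest enrichment in libraries 1 and 2, fell inside the promoter. The 4 of highest fold are shown because they are the most enriched of these promoters, and the promoter of Gm30528 because its member lies beside the HoxC cluster. Each is written 5′ to 3′ on the strand of its gene, and capitals run from the summit of one CHD7 library to that of the other.
Gm32213 (chr11:20794370-20794669, plus strand): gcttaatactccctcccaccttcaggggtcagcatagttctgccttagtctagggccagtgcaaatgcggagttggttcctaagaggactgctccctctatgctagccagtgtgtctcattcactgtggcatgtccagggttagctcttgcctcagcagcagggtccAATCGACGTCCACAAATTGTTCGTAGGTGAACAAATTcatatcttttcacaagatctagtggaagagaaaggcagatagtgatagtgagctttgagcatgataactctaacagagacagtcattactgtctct
2310001H17Rik (chr6:129237996-129238295, minus strand): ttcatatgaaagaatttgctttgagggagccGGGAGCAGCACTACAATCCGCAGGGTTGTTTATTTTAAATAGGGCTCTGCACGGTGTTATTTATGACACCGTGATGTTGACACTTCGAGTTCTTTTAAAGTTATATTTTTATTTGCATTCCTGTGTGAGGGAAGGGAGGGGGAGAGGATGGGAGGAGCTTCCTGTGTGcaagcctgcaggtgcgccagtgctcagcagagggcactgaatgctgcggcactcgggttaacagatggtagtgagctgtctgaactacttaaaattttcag
Gm32733 (chr15:97107712-97108011, minus strand): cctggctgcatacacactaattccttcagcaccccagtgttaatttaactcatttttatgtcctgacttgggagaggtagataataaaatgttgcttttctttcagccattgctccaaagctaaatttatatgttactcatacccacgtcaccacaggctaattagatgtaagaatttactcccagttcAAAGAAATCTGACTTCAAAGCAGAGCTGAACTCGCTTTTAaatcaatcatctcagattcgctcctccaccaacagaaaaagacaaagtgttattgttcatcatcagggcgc
Gm33293 (chr5:67231637-67231936, minus strand): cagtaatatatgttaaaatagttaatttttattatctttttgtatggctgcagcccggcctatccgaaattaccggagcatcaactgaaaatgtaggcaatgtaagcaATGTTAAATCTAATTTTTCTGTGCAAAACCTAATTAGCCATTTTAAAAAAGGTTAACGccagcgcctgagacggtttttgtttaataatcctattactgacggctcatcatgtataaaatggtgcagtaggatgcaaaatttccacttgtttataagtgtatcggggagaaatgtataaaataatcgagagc
Gm30528 (chr15:103060506-103060805, minus strand): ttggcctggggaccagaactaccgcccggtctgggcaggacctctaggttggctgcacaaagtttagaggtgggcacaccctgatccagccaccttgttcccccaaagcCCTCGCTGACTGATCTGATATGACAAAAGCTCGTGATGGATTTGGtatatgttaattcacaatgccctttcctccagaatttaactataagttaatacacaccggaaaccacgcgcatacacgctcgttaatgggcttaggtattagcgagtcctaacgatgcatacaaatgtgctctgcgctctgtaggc

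The member at Gm32213 had CHD7 folds of 4.50 and 3.77 in libraries 1 and 2, and its summits lay 37 bases apart, both ends counted. Fold is the enrichment at the summit over the local background, given by the authors' peak caller. The member at 2310001H17Rik had folds of 3.15 and 4.40 and the widest stretch between summits, 168 bases. Those at Gm32733 and Gm33293 had folds of 3.39 and 3.86, and of 2.95 and 4.02. The member at Gm30528 was weaker, with folds of 2.55 and 2.07, and lay 0.40 kb from an H3K27ac peak, while the nearest such peak was between 17.5 and 56.8 kb away from the other 4. Library 2 had the higher fold at 3 of these 5 promoters.

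The lncRNA promoters at members stood between those at acetylated regions and the lncRNA promoters of the whole table in CpG content. The 53 promoters overlapped by members, of 50 genes, held a median of 8 CpG dinucleotides and 51.0% G and C. The 194 promoters overlapped by intergenic CHD7 regions with H3K27ac held 11 and 55.0%, and all 11588 lncRNA promoters of the table held 4 and 48.3%. The GC box GGGCGG, searched on both strands, was found in 22.6% of the promoters at members, in 44.8% of those at regions with H3K27ac and in 16.3% of all lncRNA promoters. The CCAAT box was found in 28.3%, 31.4% and 36.0% of them. The TATA box TATAAA was found in 9.43%, 16.0% and 15.5%, and the E-box CANNTG in 79.2%, 73.2% and 78.4%. The AP-1 motif TGANTCA was found in 9.43%, 8.76% and 9.31%. The GC-box values followed the CpG values in order, and a match of letters is not a binding site.

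H3K27ac was absent from 1585 of the 3404 intergenic CHD7 regions that were free of input peaks (46.6%). The other 1819 overlapped an H3K27ac peak, 1343 of them in both H3K27ac libraries and 476 in 1 library alone. A further 51 regions without H3K27ac were left out because they overlapped an input peak. The intergenic band between 1 and 100 kb held a larger share of the peaks of either CHD7 library than of either H3K27ac library. It held 20.6% and 18.7% of the peaks of CHD7 libraries 1 and 2, 17.2% and 16.5% of those of the H3K27ac libraries, and 42.1% and 41.0% of the few input peaks. The difference between CHD7 (19.7% ± 1.34) and H3K27ac (16.9% ± 0.495; SD, n = 2 each) was 2.80 percentage points. No test could pass a threshold here, since 2 against 2 libraries give no exact two-sided permutation p below 0.333, and the same peak calls chose the members. The difference was 7.21 points among peaks with −log10 q at 10 or above, 6.91 points among the 10000 peaks of lowest q in each list, and 1.85 points without CHD7 library 1.

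CHD7 enrichment at members was modest for most and high for a few. The median fold was 3.27 and 3.21 in CHD7 libraries 1 and 2 at members, and 3.53 and 3.43 at intergenic regions with H3K27ac. This is a log2 difference of −0.11 in library 1 and −0.10 in library 2, the same direction in both libraries. Against CHD7 regions in gene bodies without H3K27ac, with medians of 3.15 and 3.13, the log2 difference was 0.05 and 0.04. The middle part of the members, from the first to the third quartile, reached from 2.84 to 3.86 in library 1 and from 2.79 to 3.74 in library 2. These overlap widely with the ranges of the acetylated regions, 3.05 to 4.18 and 2.98 to 4.09. Only 132 members (8.33%) and 137 gene-body regions without H3K27ac (6.66%) reached 10 on the −log10 q scale in both libraries. Of the regions with H3K27ac, 313 (17.2%) did. With that limit on CHD7 peaks the log2 difference was 0.015, so it had turned its sign. Peaks within a list are not replicates, and no test was made of these differences.

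**Figure D1:**
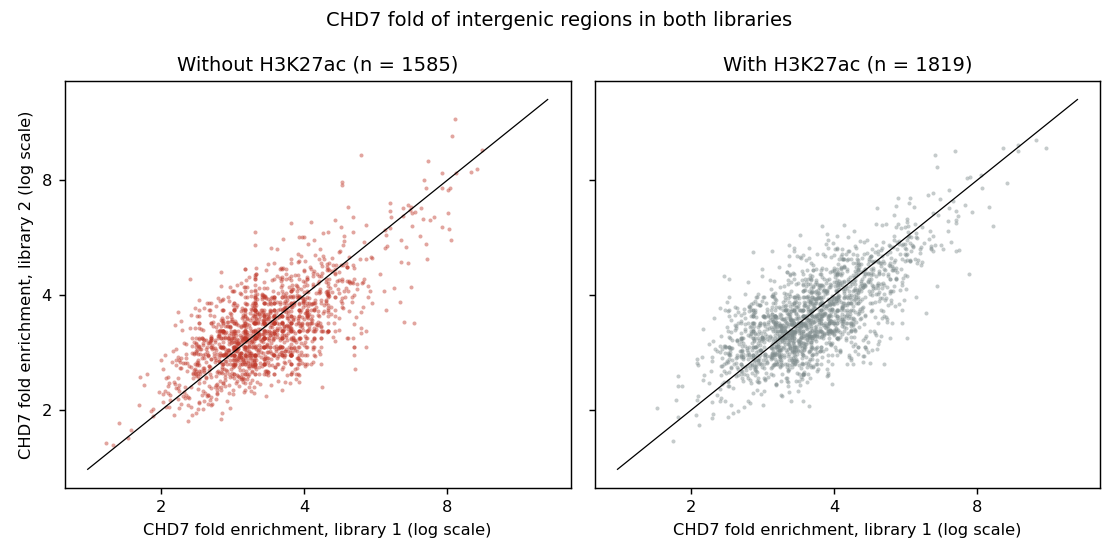
CHD7 fold enrichment of intergenic regions in library 1 (x axis) and library 2 (y axis), both on log scales, for the 1585 regions without H3K27ac (left) and the 1819 with it (right); each point is 1 region and the line marks equal fold. The clouds overlap, and the regions without H3K27ac have the lower median in both libraries, 3.27 and 3.21 against 3.53 and 3.43.

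The summits of both libraries lay a median of 76 bp apart at members, 77 bp at acetylated intergenic regions and 86.5 bp at gene-body regions without H3K27ac. They lay within 100 bp of each other in 956 members (60.3%). Fold correlated between libraries with a Spearman rho of 0.59 across the 1585 members, against 0.64 across the 1819 regions with H3K27ac. These are correlations across regions, which share the 2 libraries. The fold differed between libraries by a factor of 1.5 or more at 66 members (4.16%). The member with the largest ratio, 15.9 kb from Zcchc2, had folds of 6.82 and 3.37. The one with the smallest, 26.3 kb from Zfp704, had 2.3 and 4.40. Members were narrower than regions with H3K27ac, with a median merged length of 603 bp against 758 bp. Gene-body regions without H3K27ac were close to members, with a median of 615.5 bp. A single summit in each library was given for 76.8% of members, 59.5% of regions with H3K27ac and 78.6% of gene-body regions without it.

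The share of regions without H3K27ac varied with the CHD7 fold around the 46.6% of all intergenic regions. Among the 10 intergenic regions of highest mean fold, 5 lacked H3K27ac (95% Wilson interval 23.7 to 76.3%), and so did 19 of the next 40 (47.5%, 32.9 to 62.5%). These top intervals are wide and hold the share of all intergenic regions. The share was 40% (27.6 to 53.8%) at ranks 51 to 100 and 25% at ranks 101 to 200 (17.5 to 34.3%) and 31.5% at ranks 201 to 400. It was 47.4% at ranks 1601 to 2400 and 58.0% (54.9 to 61.0%) among the 1004 regions of lowest fold. When CHD7 peaks had to reach 10 on the −log10 q scale, 29.7% of intergenic regions lacked H3K27ac. The highest mean fold of an intergenic region was 9.94 among members and 10.4 among regions with H3K27ac. The intervals cover counting error only.

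**Figure D2:**
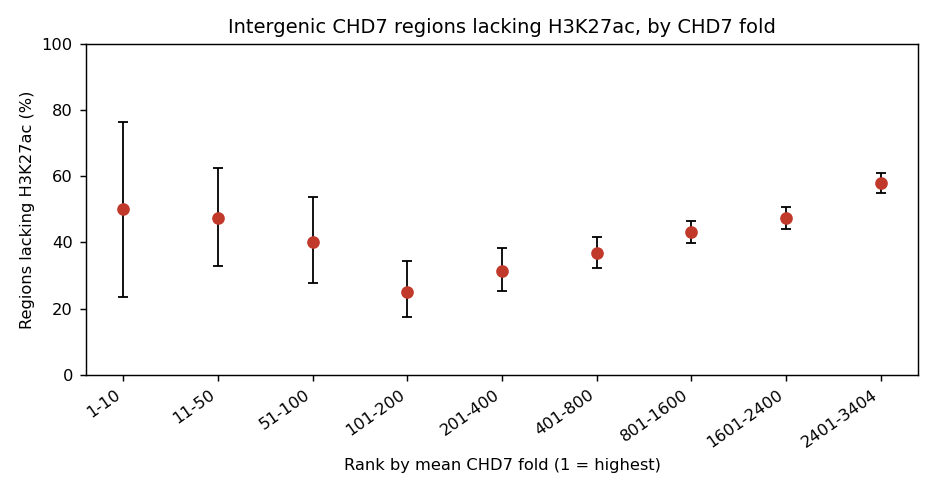
Share of intergenic CHD7 regions that lacked H3K27ac (y axis, percent) by rank of mean CHD7 fold over both libraries (x axis, rank 1 is the highest fold); bars are 95% Wilson intervals. The intervals of the top 2 bins are wide and hold the 46.6% of all intergenic regions, and the share is 40% at ranks 51 to 100, 25% at ranks 101 to 200 and 58.0% at the lowest ranks.

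The strongest member lay 41.7 kb from Sema6a, which encodes a transmembrane semaphorin of axon and cell guidance (chr18:47412886-47413621). Its CHD7 folds were 8.29 and 11.6 in libraries 1 and 2, and the nearest H3K27ac peak was 43.2 kb away. The second lay 63.3 kb from Adgrl2, an adhesion G protein-coupled receptor gene (chr3:149052424-149053048), with folds of 9.47 and 9.58. At this member the summits were 3 bp apart. The third lay 65.2 kb from Wasf1, a regulator of actin branching (chr10:41003802-41004602), with folds of 8.19 and 10.4. The member 76.6 kb from Ifngr1, a subunit of the interferon gamma receptor, had 9.23 and 8.57. All 4 were at least 21.7 kb from the nearest H3K27ac peak.

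The other members among the 10 strongest were at least 7.28-fold enriched in each library. Without regions within 100 kb of an input peak, 8 of the 10 strongest were left, against 94.8% of all members. The member near Cd82, a tetraspanin gene (chr2:93484027-93484893), had folds of 8.96 and 8.39, with summits 2 bp apart. The member near Frmd4a, a gene of epithelial polarity, had 8.36 and 8.34, and no H3K27ac peak lay within 179.8 kb of it. The member 44.2 kb from Ebf2, a transcription factor gene (chr14:67188110-67189138), had 8.10 and 7.64 and overlapped the lncRNA gene Gm30438. The members near Gm3415, Ice1 and Smpdl3a had mean folds between 7.79 and 8.13. Of the nearest genes of these 10 members, 6 had H3K27ac at an end and 7 had CHD7 there. Over all members the shares were 58.0% and 54.8%. Like members at large, the strongest stood beside genes with and without acetylated ends.

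The genes nearest to members carried H3K27ac at an end somewhat more often than protein-coding genes at large, though not for the members of lowest q. An H3K27ac region of both libraries lay within 1 kb of an end of the nearest gene for 920 of 1585 members (58.0%, 95% Wilson interval 55.6 to 60.5%), and for 1117 of 1819 intergenic regions with H3K27ac (61.4%, 59.1 to 63.6%). Counted over genes it was 770 of 1311 genes nearest to a member (58.7%), 872 of 1410 genes nearest to an acetylated region (61.8%) and 47.6% of all 21776 protein-coding genes. CHD7 lay at an end of 724 (55.2%) of the genes nearest to a member, 796 (56.5%) of the genes nearest to an acetylated region and 44.2% of all protein-coding genes. Both marks were found at 641 of the 1311 genes and neither at 458. Within 10 kb of the gene the shares with H3K27ac were alike, 62.1% for members and 60.5% for regions with H3K27ac. Between 10 and 50 kb they were 56.4% and 62.0%, and between 50 and 100 kb 55.0% and 61.2%. For the 132 members that remained when CHD7 peaks had to reach 10 on the −log10 q scale the share was 47.0%, no higher than the 47.6% of all protein-coding genes and 13.1 percentage points below that of regions with H3K27ac under the same limit.

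Most genes had a single member. In all, 1311 of 21776 protein-coding genes (6.02%) were nearest to at least 1 member, 1103 of them to 1, 163 to 2, 33 to 3 and 12 to 4 or more. Regions with H3K27ac were nearest to 1410 genes (6.48%). Both kinds stood nearest to 314 genes, which is 24.0% of the genes with members and 22.3% of those with acetylated regions. Members were more scattered than acetylated regions. Another member lay within 10 kb of 169 members (10.7%), while 355 regions with H3K27ac (19.5%) had another of their kind within that distance. Of 2056 gene-body regions without H3K27ac, 149 (7.25%) did. The median gap to the nearest of their kind was 256.4 kb at members, 105.1 kb at acetylated regions and 170.6 kb at these gene-body regions. Nearest is a matter of position and does not show which gene a region acts on.

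Members were spread over the whole band. The gap to the nearest gene end had a median of 19847 bp at members and 20283 bp at regions with H3K27ac, and 21.4% of members and 15.3% of regions with H3K27ac lay within 5 kb. Members within 5 kb had the lowest folds, medians of 2.95 and 2.84 in libraries 1 and 2, against 3.39 and 3.24 between 50 and 100 kb. Regions with H3K27ac were also lowest within 5 kb, with 3.36 and 3.24, against 3.51 and 3.43 between 50 and 100 kb. The lower limit of the band cut through a continuous range. The members just inside it, at Taf15 and Ublcp1, had folds of 2.83 and 2.21, and of 3.30 and 2.49. The regions just outside it, at Foxa1 and Mn1, had 2.33 and 2.26, and 2.73 and 2.36. At the upper limit the members at Top1 and Cbln4 had mean folds of 2.89 and 2.95, and the regions just beyond it, at 1700017N19Rik and Ralgapa2, had 2.96 and 5.79.

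Few members stood directly beside acetylated chromatin. The gap to the nearest H3K27ac peak had a median of 17.5 kb at members and 22.6 kb at gene-body CHD7 regions without H3K27ac. It was at most 1 kb at 161 members (10.2%), between 1 and 10 kb at 415, between 10 and 50 kb at 662 and above 100 kb at 126 (7.95%). Among members, CHD7 folds were lower close to an H3K27ac peak. Within 1 kb the median folds were 3.01 and 3.06 in libraries 1 and 2, and beyond 100 kb they were 3.45 and 3.37. Gene-body regions without H3K27ac showed the same rise, from 2.94 and 2.93 to 3.42 and 3.30. The rise holds only among regions without H3K27ac. Intergenic regions that overlapped an H3K27ac peak had higher medians, 3.53 and 3.43. A member 54177 bp from Marcks, which encodes a membrane-bound substrate of protein kinase C, stopped 1 bp short of an H3K27ac peak, with folds of 3.45 and 2.79. The member farthest from H3K27ac, at 5729249 bp, lay near Cdh10, a cadherin gene (chr15:19114782-19115302), with folds of 2.85 and 2.93. A member near Slitrk6, a neuronal transmembrane protein gene, lay 950411 bp from any H3K27ac peak, with folds of 6.70 and 4.19. The median gap was 54.1 kb when only H3K27ac peaks that reached 10 on the −log10 q scale counted, and 9.37 kb when regions touched by 1 H3K27ac library alone were admitted as members.

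**Figure D3:**
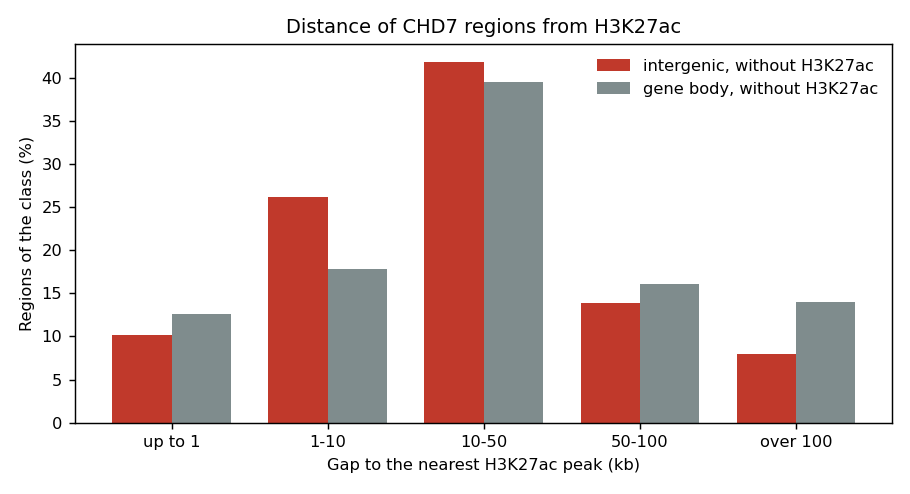
Share of CHD7 regions without H3K27ac (y axis, percent of the class) by gap to the nearest H3K27ac peak of either library (x axis, kb), for the 1585 intergenic members (red) and 2056 gene-body regions (grey). Most members lie between 1 and 50 kb from the nearest peak, and 10.2% lie within 1 kb.

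Members were next counted around 18 lists of genes with 435 different genes. Of these, 89 genes were nearest to 117 members. Pharyngeal arch patterning genes had the highest share, with a member at 13 of 26 (50%), against 6.02% of all protein-coding genes. Developmental genes lie in wide intergenic spaces, and the ground nearest to a gene was therefore measured beside it. Per Mb of ground between 1 and 100 kb that was nearest to the genes of the list, arch patterning genes had 5.04 members and all protein-coding genes 1.89. Regions with H3K27ac numbered 2.02 per Mb for arch patterning genes and 2.17 for all genes. Without CHD7 library 1 the arch list had 9.42 members per Mb, against 3.23 for all genes, and only Hox genes had more. Without library 2 it had 10.8, against 4.60, but this excess was not particular to the arch list. In that run skeletal muscle markers had 19.7 per Mb (14 members) and housekeeping genes 16.7 (8 members). Hox genes and neural crest, cardiomyocyte and neuron markers also stood above the arch list there. No test was made of these counts, and the lists were chosen with earlier results of these data known.

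The members at arch patterning genes had low to middling folds. The stronger of 2 at Six2, a homeobox gene of progenitor cells, had 3.55 and 3.67 in libraries 1 and 2, and the member 1.6 kb from Dlx3, a distal-less homeobox gene, had 3.90 and 3.06. Neither Six2 nor Dlx3 had H3K27ac at an end. The member 7.50 kb from Meis2, a homeobox cofactor gene with H3K27ac at an end, had 3.13 and 3.38 and overlapped 2 lncRNA genes. Single members lay nearest to Dlx2, Eya2, Barx1, Nkx3-2, Nr2f1, Irx5 and Emx2 and 2 to Meis1. Over the 15 members of the list the mean fold ranged from 2.20 to 3.86, with a median of 2.90, against 3.26 for all members. When CHD7 peaks had to reach 10 on the −log10 q scale, 1 member was left in the list.

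Neural crest markers had a member at 8 of 24 genes (33.3%), against 6.02% of all protein-coding genes. They had 12 members in all or 4.72 per Mb, against 1.89 for all genes, and 3.15 regions with H3K27ac per Mb. Ets1, an ETS factor gene of cardiac crest, had 2, of which the stronger (chr9:32823612-32824451) had folds of 3.94 and 4.16. The other had 2.65 and 3.12 and lay 0.14 kb from an H3K27ac peak. Msx1, a homeobox gene of crest mesenchyme, had 3, and their mean folds were 2.03, 2.95 and 3.43. Tfap2b, an AP-2 factor gene, had 1 with folds of 3.61 and 3.24, and no H3K27ac peak lay within 565.9 kb of it. The helix-loop-helix inhibitor gene Id2 had 1 with 3.40 and 3.34 that lay 0.4 kb from an H3K27ac peak. Sox9 had 2, and Foxd3, Tfap2a and Msx2 had 1 each. That at Msx2 lay 0.49 kb from an H3K27ac peak. Over the 12 members the median gap to such a peak was 16.1 kb, against 17.5 kb for all members. None of these 12 members reached a −log10 q of 10 in library 1.

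Guidance genes held the strongest members of any list. A member stood at 11 of 33 semaphorin, slit and ephrin genes (33.3%), against 6.02% of all protein-coding genes. The list had 15 members or 3.68 per Mb, against 1.89 for all genes, and 2.45 regions with H3K27ac per Mb. Without CHD7 library 1 it had 4.91 members per Mb, against 3.23 for all genes, and without library 2 5.64, against 4.60. Beside the member at Sema6a, that at Sema5a, another transmembrane semaphorin gene (chr15:32718821-32719332), had folds of 6.59 and 6.89. The stronger of 2 at Efnb2, an ephrin ligand gene, had 4.91 and 4.73, and that at Epha7, an ephrin receptor gene, had 4.50 and 4.22 with both summits on the same base. Sema3a, a secreted semaphorin gene of crest and axon guidance, had 2 members, with folds of 4.45 and 3.88 and of 3.38 and 3.20. Robo1, a slit receptor gene, had 2, and 1 of them differed between libraries, with folds of 5.11 and 2.56. The other members of the list lay at Sema3d, Nrp2, Robo2, Epha3 and Ntn1.

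Genes of signalling pathways had members at 25.8% to 30% of genes, against 6.02% of all protein-coding genes. BMP and TGF-beta genes had a member at 8 of 31 (25.8%), WNT genes at 10 of 36 (27.8%), and NOTCH, hedgehog, FGF and retinoic acid genes at 12 of 40 (30.0%). Per Mb these were 3.82, 4.25 and 4.83 members, against 1.89 for all genes. BMP and WNT genes had more regions with H3K27ac than members, 5.52 and 5.32 per Mb. The stronger of 2 at Bmp7, a ligand gene, had folds of 4.58 and 4.09 and that at Inhba, the activin subunit gene, 3.15 and 3.81. Among WNT genes, the transcription factor gene Lef1 had 2 members, the stronger with folds of 4.40 and 3.76 and the ligand gene Wnt7b one with 3.92 and 3.96, which lay 1.1 kb from the gene. Hes1, a NOTCH target gene, had 3 members, the strongest with 3.89 and 5.12. Spry1, a feedback inhibitor gene of FGF signalling, had 2, the stronger with 4.16 and 4.50, and Ptch1, the hedgehog receptor gene, one with 3.87 and 3.49. Rarb, a retinoic acid receptor gene, had one with 3.8 and 3.50 whose nearest H3K27ac peak was 81.2 kb away.

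Of 39 Hox genes, 2 had members (5.13%, against 6.02% of all protein-coding genes), 6 members in all. Hox genes stand so close together that little ground is nearest to them, 0.504 Mb in all, and the density of 11.9 members per Mb rests on these 6. At Hoxc4, a gene at the edge of its cluster, the 3 members had folds of 2.55 and 2.07, of 2.85 and 2.48, and of 2.26 and 2.74, and the first of them lies on the promoter of Gm30528 shown above. The first and the second lay within 1 kb of an H3K27ac peak and the third lay 15.9 kb from one. Hoxc4 had neither CHD7 nor H3K27ac at an end.

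The lists of outflow tract, smooth muscle, chromatin and housekeeping genes had between 1 and 7 members each. A member stood at 9.38%, 13.6%, 10.3% and 3.7% of their genes, in that order, against 6.02% of all protein-coding genes. Cardiac outflow tract genes had 3 at 32 genes (0.991 per Mb, against 2.64 regions with H3K27ac per Mb), at Cited2 (folds 2.58 and 2.82), Smad4 (2.34 and 2.43) and Mef2c (2.13 and 2.36). These 3 were all weak. The low density did not hold without CHD7 library 2, when the list had 19 members or 6.28 per Mb, against 4.60 for all protein-coding genes. Without CHD7 library 1 it had 10 members or 3.3 per Mb, against 3.23 for all genes. Smooth muscle and matrix genes had 3 at 22 genes, led by that at Eln, the elastin gene, with folds of 4.96 and 4.35. Chromatin regulators had 7 members at 4 of 39 genes, of which 4 lay at Chd2, a remodeller of the same family as CHD7. Regions with H3K27ac were more frequent there, with 4.39 members and 10.04 acetylated regions per Mb. Housekeeping genes had 1 member at 27 genes, at Reep5. Smooth muscle and matrix genes had 1.95 members per Mb and housekeeping genes 2.09, close to the 1.89 of all protein-coding genes. The 4.39 of chromatin regulators was above it. Without CHD7 library 2 smooth muscle and matrix genes had 9.11 and housekeeping genes 16.7, against 4.60 for all genes, so that this closeness did not hold.

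Markers of other cell types had members too. Neuron markers had 7 at 6 of 22 genes, led by one 19.1 kb from Neurog1, a proneural factor gene (chr13:56230599-56231373), with folds of 6.07 and 6.01. The member at Stmn2, a microtubule regulator gene of neurons, had 4.50 and 4.11. Glia and melanocyte markers had 2 members, both at Dct, and cardiomyocyte markers 1, at Nkx2-5 (2.81 and 3.43). Endothelium markers had 2, at Kdr (3.90 and 3.23) and Pecam1. Blood markers had 2, of which that at Ptprc had 4.94 and 3.08. Epithelium markers had 2, at Sox2 (4.79 and 4.36) and Krt18, and skeletal muscle markers 2, both at Meox1. With both CHD7 libraries the densities of these lists ranged from 1.78 members per Mb for epithelium to 4.0 for neuron markers. The density of epithelium markers was 8.03 without CHD7 library 1, against 3.23 for all protein-coding genes, and 6.24 without library 2, against 4.60. Its place below all genes, which had 1.89 with both libraries, thus did not hold.

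**Figure D4:**
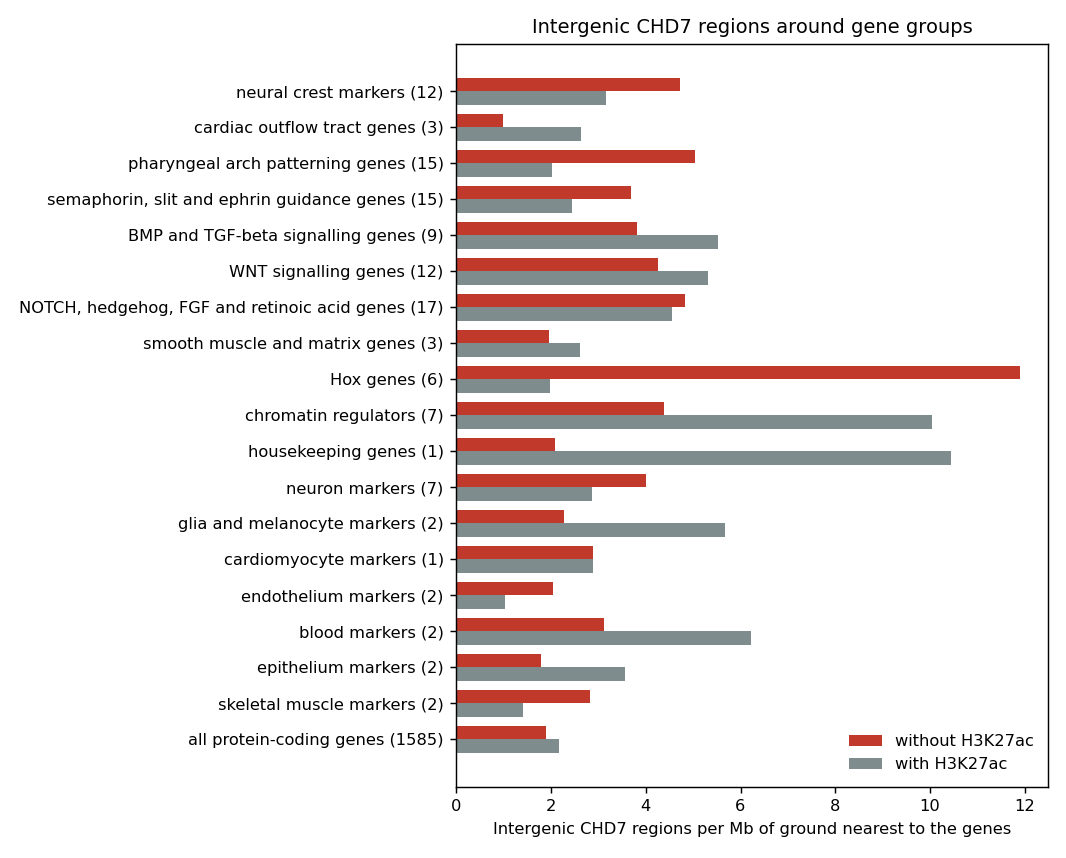
Intergenic CHD7 regions per Mb of ground that lies 1 to 100 kb from, and nearest to, the genes of each list (x axis), without H3K27ac (red, upper bar) and with it (grey, lower bar); the number of members is in brackets. Arch patterning genes have 5.04 members and 2.02 regions with H3K27ac per Mb, and all protein-coding genes 1.89 and 2.17.

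Members near the genes with the most of them lay close together in some cases only. Those near Zfp608, for example, reached from 54821027 to 55057799 on chromosome 18. The stretch of the Y chromosome near Gm52481 (chrY:90734524-90839717) held 11 members in 105.2 kb. Their mean folds ranged from 1.58 to 6.91 with a median of 2.64, and 10 of them were below the median of all members. Input peaks were dense there, with 18 of the 579 merged input peaks of the genome at that end of the chromosome, and their part in these members was not tested. Without regions within 100 kb of an input peak, 1503 members were left. Trim27 and Zfp608 had 5 each, and Rbm19 and Chd2 4 each. At Zfp608, a zinc finger gene, the strongest member (chr18:54846528-54847732) had folds of 4.21 and 5.09, and at Rbm19 the strongest (chr5:120250654-120251127) had 6.06 and 6.63. At Chd2 it had 4.31 and 4.07, and its 4 members lay between 34.5 and 95.4 kb from the gene.

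All 5 members near Trim27 overlapped transfer RNA genes of the cluster on chromosome 13. The strongest (chr13:21233515-21234597) overlapped the gene n-TAagc17, of alanine tRNA, with folds of 7.49 and 6.39, and the next overlapped n-TRccg3, of arginine tRNA, with 4.84 and 5.54. In all, 41 members (2.59%) overlapped 55 of the 403 tRNA genes of the table (13.6%), and 23 of the 41 lay on chromosome 13 between 21160572 and 23519661. Their mean folds ranged from 2.17 to 6.94, with a median of 3.26, and the median of all members was 3.26. Of the regions with H3K27ac, 73 (4.01%) overlapped a tRNA gene. Transfer RNA genes are transcribed by RNA polymerase III, and their copies are similar in sequence, so that reads may be shared between copies, and the part of such sharing was not tested.

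LncRNA, small nuclear RNA and pseudogenes overlapped fewer members than acetylated regions. Any non-coding gene or pseudogene of the table was overlapped by 355 members (22.4%). LncRNA genes were overlapped by 300 members (18.9%) and 544 regions with H3K27ac (29.9%). Small nuclear RNA genes were overlapped by 2 (0.126%) and 29 (1.59%), and pseudogenes by 12 (0.757%) and 35 (1.92%). Regions with H3K27ac were also longer, with a median of 758 bp against 603 bp, and the part of length in these overlaps was not tested. Beyond the members named above, the strongest on lncRNA genes lay near Cdk15 (6.74 and 6.55, on Gm33724), Rsph3a (5.93 and 5.92, on Gm1604a) and Ubxn10 (5.90 and 5.31, on Gm32770).

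Members at microRNA genes numbered 2 (0.126%), and regions with H3K27ac there numbered 4 (0.22%). A microRNA pairs with its targets mainly through its seed, bases 2 to 8. The member 55.6 kb from Dcn, the decorin gene, covered Mir3966 (chr10:97423478-97423562, plus strand), and its mature RNA is shown with the seed in capitals.
mmu-miR-3966: aGCUGCCAgcuguagaacugu
This member had folds of 3.6 and 2.84, and its summits lay on either side of the hairpin gene. The other, 40.0 kb from Il17b, covered Mir145a, a microRNA of smooth muscle, within the lncRNA genes Carmn and Bvht. It was weak, with folds of 2.11 and 2.85, and lay 3.0 kb from an H3K27ac peak.

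Members were rare on the X chromosome. It held 8 members, 0.123 per Mb of intergenic ground, against 2.14 on the autosomes, and 32 regions with H3K27ac, 0.491 per Mb against 2.44. The strongest lay near Pja1, a ubiquitin ligase gene, with folds of 5.39 and 4.99, followed by those near Pbdc1 (4.50 and 3.67) and Itm2a (3.6 and 3.23). Among the 8, 3 lay near Mid1 and within 100 kb of an input peak. On the autosomes the density ranged from 1.31 on chromosome 7 to 2.77 on chromosome 11. Chromosome 17 had 1.73 members and 3.1 regions with H3K27ac per Mb, and chromosome 15 had 2.74 and 2.20.

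**Figure D5:**
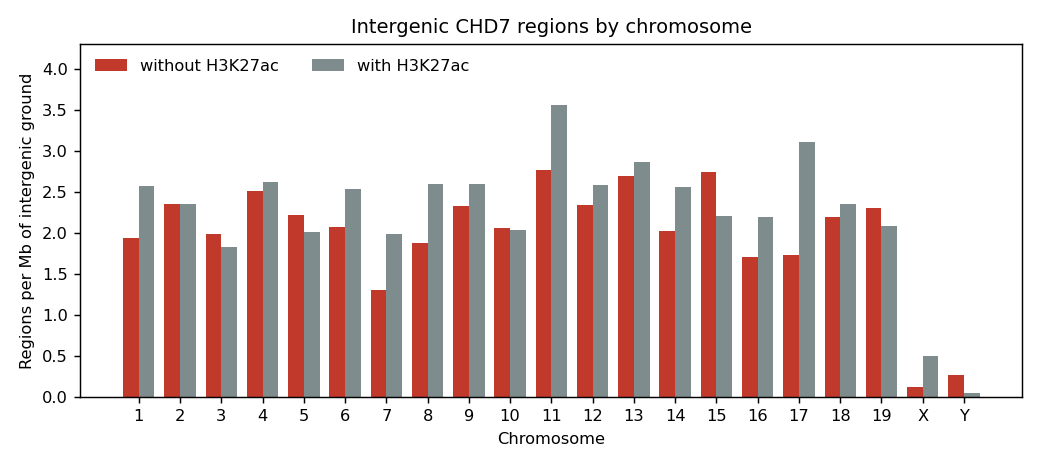
Intergenic CHD7 regions per Mb of ground 1 to 100 kb from protein-coding genes (y axis) on each chromosome (x axis), without H3K27ac (red, left bar) and with it (grey, right bar). Chromosome X has 0.123 members per Mb, and autosomes between 1.31 and 2.77.

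The longest members were low in fold. That of the Y chromosome (2601 bp) had folds of 2.71 and 2.57, that near Gpc5 (2421 bp) 2.40 and 2.41, and that near Tra2b (2038 bp) 2.20 and 2.08. On the −log10 q scale that of the Y chromosome reached 39.0 and 36.4, that near Gpc5 7.16 and 6.88, and that near Tra2b 5.89 and 4.75. The number of members depended on both CHD7 libraries being required. It was 2703 without library 1 and 3847 without library 2, and 132 when CHD7 peaks had to reach 10 on the −log10 q scale.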

How the data were processed

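ChIP-seq was carried out for CHD7, H3K27ac and input chromatin, 2 libraries each. Per the submitters' processing notes, MACS2 2.1.2, Bowtie2 2.3.3.1, bcl2fastq 2.18.0.12 and Picard were used, and the build was mm10. The authors deposited 1 list of peaks for each library. Each peak has a fold enrichment (a ratio), the p-value and q-value as −log10, and an integer score, all computed by the authors' peak caller and used as deposited. The deposited summit offset gave the position of highest enrichment. The sources used here do not say whether input served as control.

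Rows with several summits of 1 interval were joined, keeping the highest fold and q, and peaks on other sequences than chromosomes 1 to 19, X or Y were dropped (27 to 106 per library). Overlap meant at least 1 bp. Genes came from the RefSeq table of GRCm38.p6: 21776 protein-coding genes were used, those starting below position 3000000 (500000 on Y) being left out. The ground of a gene was the stretch 1 to 100 kb from its ends, outside gene bodies and nearest to it. Regions were named by the nearest gene. Named were the 10 of highest mean fold, the 5 genes with most members, up to 4 members per list, the 3 strongest on X, up to 6 on non-coding genes, and the extremes of distance to gene, length and library ratio. The extremes of the gap to H3K27ac and further members of list genes were named after their values were seen. The members and lists were chosen with earlier results of these data known. The interval functions were tested on simulated intervals. Python 3.11.15, pandas 2.3.3 and SciPy 1.17.1 were used. Members at some genes of the lists are not reported here.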

Additional observations from a re-analysis of the deposited data

How the results depend on the processing

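Limiting CHD7 peaks to those reaching 10 on the −log10 q scale left 132 members, 29.7% of intergenic CHD7 regions, with a median fold of 4.95, a log2 difference from regions with H3K27ac of 0.015 (reversed from −0.10), 47.0% with H3K27ac at the nearest gene and a difference of −13.1 points. The same limit on H3K27ac peaks gave 2688 members, 79.0%, a log2 difference of −0.24, 34.6% and a median gap of 54.1 kb, since fewer H3K27ac peaks remained. A CHD7 peak in either library gave 4749 members, 62.3%, a median fold of 3.04 and −0.14. Requiring H3K27ac of both libraries for removal gave 60.5%, −0.13 and 9.37 kb. Barring H3K27ac within 1 kb gave 41.8%, −0.070 and 21.3 kb. A lower limit of 2.5 kb gave a gap of 19.3 kb, and an upper limit of 50 kb a median fold of 3.18, −0.13 and 14.7 kb. Without regions within 100 kb of an input peak, chosen after seeing the data, the gap was 18.5 kb. Gene-end windows of 0.5 and 2.5 kb gave 54.6% and 61.2% with H3K27ac, the second with a difference of −7.03 points. The cause was not tested except where a rule itself removes or adds regions. Leaving out each library in turn gave 1590 to 3847 members, 46.5 to 59.8% without H3K27ac, median folds of 3.00 to 3.26, log2 differences of −0.14 to −0.10, 57.9 to 62.5% with H3K27ac at the nearest gene, differences of −4.07 to −1.59 points, gaps of 16.6 to 23.0 kb and 1.85 to 3.75 points for the band. The difference in nearest genes was negative under each alternative run. Arch patterning genes had between 1 and 41 members over the alternatives. Pairing libraries of the same number (replicate block) left the band difference at 2.80 points, and 2 pairs cannot pass a threshold. Depth is unknown, so weak H3K27ac cannot be told from none.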
